A study of Mus musculus with 22 samples.

Results

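Arterial smooth muscle cells sorted from bladder and from stomach, a pair of hollow organs that stretch as they fill, were compared across all genes of 6 libraries, 3 from each organ, out of 22 libraries from 7 mouse tissues. The deposited table lists 28099 genes, of which 14538 reached a signal of 10 in 3 or more of the 6 libraries and were tested. All 6 libraries carry the genotype Cspg4-Dre/Acta2-CreERT/R26-GFP and the same treatment, intraperitoneal tamoxifen at 0.75 mg per 10 g body weight on 3 days, followed by fluorescence-activated sorting and at most 10 ng of total RNA into SMART-Seq v4, a kit that amplifies full-length cDNA from little RNA. In this genotype Dre is driven by Cspg4, which encodes the mural cell proteoglycan NG2, the tamoxifen-dependent Cre by Acta2, the gene of smooth muscle actin, and the reporter is GFP from the Rosa26 locus. Acta2 is also active in the muscle of the organ wall, and Cspg4 in cells other than arterial muscle, so the drivers alone do not single out arteries. The labels give no age, sex, litter or number of mice, and do not say that the 3 libraries of an organ came from separate animals. The p-values therefore measure the spread between these libraries, which may be technical.

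Smooth muscle of different vessels arises from different embryonic mesenchyme, and adult cells can keep transcription factor patterns laid down along the body axis. Hox genes record that position, with genes late in each cluster active in the hindgut, bladder and limb and earlier genes further forward. The stomach wall comes from foregut mesoderm, which uses factors such as Barx1. Arterial muscle itself sets vessel tone through contractile proteins, ion channels and receptors for noradrenaline, vasopressin and other transmitters, and it builds the collagen and elastic matrix of the wall.

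Among the genes read in one organ and nearly absent from the other were homeobox transcription factors, and 4 of their promoters are shown first, since they open the genes on which the positional result rests. RefSeq promoter windows of 300 bases (250 before to 50 after a start, build GRCm38.p6) were available for Hoxa10 (chr6:52240805-52241104, minus strand), Hoxa13 (chr6:52260831-52261130, minus strand), Barx1 (chr13:48662786-48663085, plus strand) and Nkx2-3 (chr19:43612075-43612374, plus strand). Hoxa10 and Hoxa13 were read in bladder, and Barx1 and Nkx2-3 in stomach. Capitals mark each CG dinucleotide, the site of vertebrate DNA methylation.
Hoxa10: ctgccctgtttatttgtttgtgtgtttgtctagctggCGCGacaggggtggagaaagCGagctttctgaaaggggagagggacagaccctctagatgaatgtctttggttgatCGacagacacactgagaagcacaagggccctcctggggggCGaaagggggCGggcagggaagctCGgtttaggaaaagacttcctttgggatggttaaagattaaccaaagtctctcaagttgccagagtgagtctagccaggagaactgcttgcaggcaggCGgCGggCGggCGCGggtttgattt
Hoxa13: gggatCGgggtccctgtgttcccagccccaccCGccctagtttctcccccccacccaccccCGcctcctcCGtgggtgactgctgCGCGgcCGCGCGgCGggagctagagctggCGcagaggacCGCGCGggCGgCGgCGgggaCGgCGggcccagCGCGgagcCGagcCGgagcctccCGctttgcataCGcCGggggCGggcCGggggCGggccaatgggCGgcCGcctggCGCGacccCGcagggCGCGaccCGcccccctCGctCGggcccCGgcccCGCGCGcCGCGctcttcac
Barx1: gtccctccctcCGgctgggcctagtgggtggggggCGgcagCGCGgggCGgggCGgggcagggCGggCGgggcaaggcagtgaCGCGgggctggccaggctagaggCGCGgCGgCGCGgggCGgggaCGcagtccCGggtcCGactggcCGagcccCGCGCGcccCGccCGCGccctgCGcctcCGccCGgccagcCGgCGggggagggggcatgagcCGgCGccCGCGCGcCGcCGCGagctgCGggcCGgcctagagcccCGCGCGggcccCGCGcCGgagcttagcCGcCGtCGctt
Nkx2-3: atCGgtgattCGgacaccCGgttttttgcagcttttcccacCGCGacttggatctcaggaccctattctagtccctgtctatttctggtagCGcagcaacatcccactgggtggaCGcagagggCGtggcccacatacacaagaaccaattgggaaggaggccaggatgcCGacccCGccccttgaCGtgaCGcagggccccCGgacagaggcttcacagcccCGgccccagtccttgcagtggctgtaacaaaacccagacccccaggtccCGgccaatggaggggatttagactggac
The windows held 12 CG dinucleotides in Hoxa10, 45 in Hoxa13, 50 in Barx1 and 15 in Nkx2-3, against a median of 7 and an upper quartile of 20 over all 32851 windows of the table. CG-rich starts were thus found on genes read in either organ. The 11 late Hox genes with a window had a median of 20, and the 13 early ones a median of 13. No methylation was measured here, so the letters are a description of the sequence only.

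Depth and 2 features of the libraries bear on every value below. Values are deposited signal, a per-library scaled and rounded read count. Rebuilding reads from the smallest step between values gave 4389367 to 8612139 reads in the bladder libraries and 8520652 to 11527548 in the stomach libraries, within a range of 629456 to 12707985 over the series. Correlation between libraries on the log2 scale was 0.971 to 0.976 within stomach, 0.867 to 0.892 within bladder and 0.632 to 0.713 between organs, so the bladder libraries differed more among themselves. In addition, genes whose rebuilt reads approached a limit per exonic base had nearly equal reads in every library. For such a gene the signal follows what 1 read is worth, which was 1.039 units on average in bladder and 0.565 in stomach, a log2 ratio of 0.88. Fos, an immediate early transcription factor, shows this: it had 4146, 4175 and 4050 rebuilt reads in bladder and 3989, 4066 and 4235 in stomach, yet signals of 3219, 4177 and 5433 against 2654, 2298 and 1965. In the 68 tested genes with at least 1 read per base in all 6 libraries the median log2 fold change was 0.87 in signal and 0.01 in rebuilt reads. The share of genes called higher in bladder rose with reads per base, and none of the 366 genes at or above 0.5 reads per base in every library was called higher in stomach. A gene is therefore described as near the read ceiling where it reached 0.5 reads per exonic base in any library, and a bladder call is also read in rebuilt reads. Rebuilt reads are not scaled for depth, and 1 read is worth less in every stomach library than in any bladder library. Below the ceiling this check therefore only sets a higher bar for bladder calls, and failing it does not count against a call. No such count is given for stomach calls. How the ceiling arose was not tested.

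**Figure D1:**
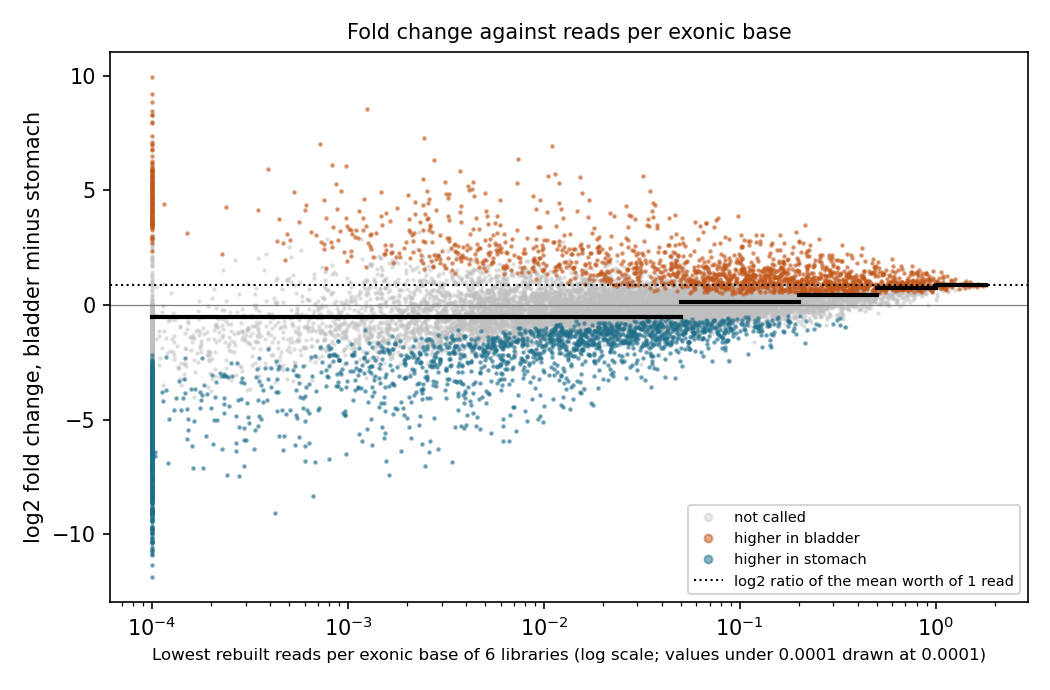
Each point is a tested gene, with its lowest rebuilt reads per exonic base over the 6 libraries on a log axis and its log2 fold change of signal, bladder minus stomach, on the other. Black bars give the median of each class, which moves from -0.54 below 0.05 reads per base to 0.87 at 1 or more, where it meets the dotted line at 0.88, the log2 ratio of the mean worth of 1 read.

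The sorted cells carried smooth muscle markers in both organs. Acta2 (ENSMUSG00000035783, chromosome 19, 34218490 to 34232990, mm39) was at 2128, 2771 and 2582 in bladder and 1992, 1697 and 1459 in stomach. The groups did not overlap, but the gene is near the read ceiling and did not pass the test (log2 fold change 0.54, SE 0.18, limma adjusted p = 0.0641, and 0.0228 without bladder 1). In rebuilt reads, which are not scaled for depth, the order turned, with every bladder library below every stomach library. Myh11, the smooth muscle myosin heavy chain, was at 8695, 4531 and 1379 in bladder against 6905, 6320 and 5302 in stomach, with a log2 fold change of -0.70 (adjusted p = 0.422) that was 0.03 without bladder 3. Cspg4 (ENSMUSG00000032911, chromosome 9, 56772317 to 56807154) was at 800, 179 and 15 in bladder and 491, 482 and 622 in stomach, and it did not pass (adjusted p = 0.272) unless bladder 1 was left out (adjusted p = 0.038). Both genes were lowest in bladder 3, below every stomach library. None of the 8 smooth muscle markers was called by limma in either direction, against 1 higher in bladder and 2 in stomach without bladder 1.

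Markers of other cells were present and differed between the organs. For the counts below, the shares of all tested genes called were 12.6% toward bladder and 16.5% toward stomach. Of 25 tested gastric epithelium markers 22 were called higher in stomach and 0 in bladder, and their summed signal was 30457 to 39183 in stomach against 497 to 3561 in bladder. The mucin Muc5ac, which coats the stomach surface, was at 3687, 4269 and 3251 in stomach and at 0 in all bladder libraries. Of 14 tested leukocyte markers 13 were higher in bladder, with sums of 6719, 4885 and 10360 against 443, 412 and 500. Among them Cd68, a macrophage glycoprotein, was at 224, 180 and 433 in bladder and 10, 10 and 13 in stomach, and H2-Aa, an MHC class II chain, was at 596, 239 and 600 against 25, 7 and 17. Fibroblast markers were high in both, 57202 to 81361 in bladder and 25298 to 30404 in stomach. All 15 of them are near the read ceiling, 14 were called higher in bladder and 8 of those were also higher in every bladder library in rebuilt reads. Leaving out bladder 2 gave 10, stomach 1 gave 8, stomach 2 gave 5 and stomach 3 gave 6. Endothelial sums were 3008 to 5784 in bladder and 7768 to 9276 in stomach, and Pecam1, an endothelial adhesion protein, was at 287, 336 and 326 against 984, 821 and 846. Of 18 endothelial markers 9 were called higher in stomach, a count that fell to between 3 and 4 without any 1 stomach library. The urothelial membrane protein Upk1b was at 71, 180 and 1372 in bladder and at 1 in each stomach library, so bladder 3 also stood apart in this gene. The summed urothelium list was at 1380, 1375 and 12915 in bladder, but at 12213, 12352 and 9683 in stomach, and its members were called in both directions. It shares members such as Cdh1, Epcam and Psca with the gastric epithelium list, so its sum in stomach is not particular to urothelium. In bulk libraries such as these, fewer cells of a type and less RNA per cell cannot be told apart. The part of these cells in the results below was not tested unless values are given.

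**Figure D2:**
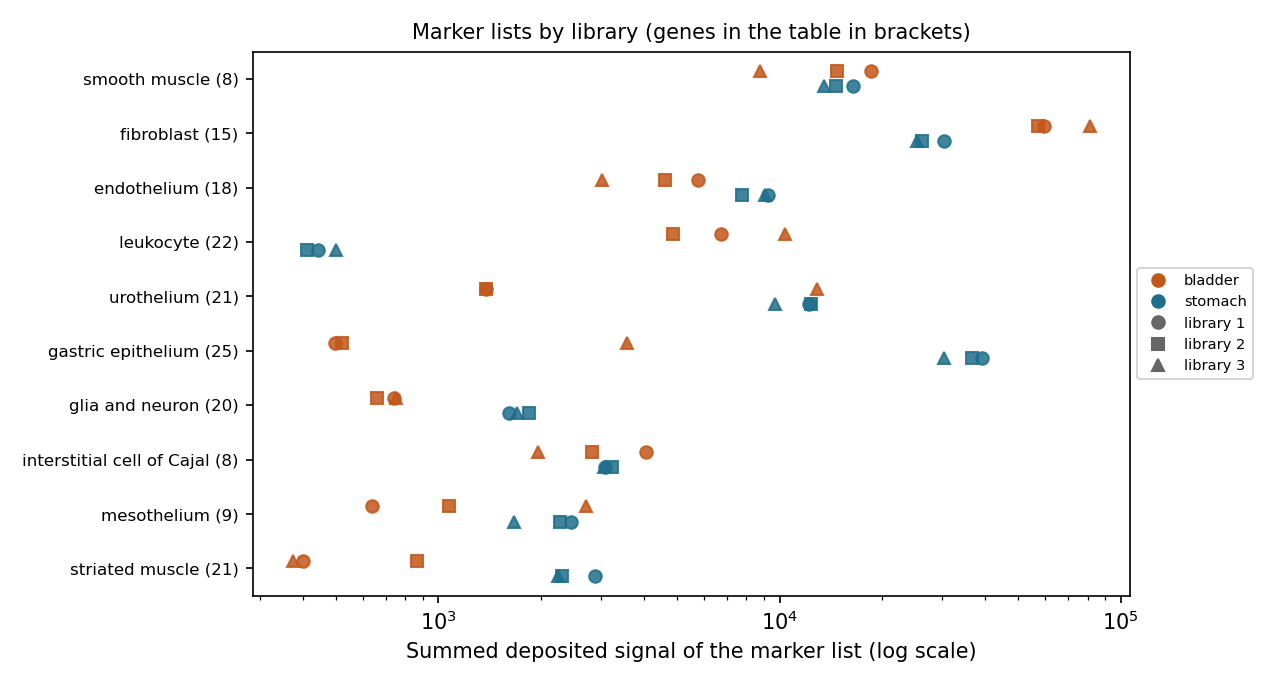
Summed deposited signal of 10 marker lists on a log axis, with 1 point per library, bladder in orange and stomach in blue. Gastric epithelium markers sit between 30457 and 39183 in stomach and at most at 3561 in bladder, leukocyte markers between 4885 and 10360 in bladder and at most at 500 in stomach.

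Across the transcriptome 4242 of 14538 tested genes were called at a limma adjusted p under 0.05, 29.2% of those tested. Of these 1838 (12.6% of tested genes) were higher in bladder, 579 of them near the read ceiling, and 2404 (16.5%) were higher in stomach, 301 of them near it. Of the bladder calls 686 (4.72% of tested genes) were also higher in every bladder library in rebuilt reads. Rebuilt reads are not scaled for depth, so this count is lowered by the deeper stomach libraries as well as by the ceiling. Large differences were more often toward stomach: a log2 fold change of at least 3 was found in 1164 genes higher in stomach and 283 higher in bladder. Signal did not overlap between the organs in 7054 genes (48.5%). Without bladder 1 the count of calls was 6682, and without stomach 1, 2 or 3 it was 2130, 1927 or 2248. Of the calls, 766 toward bladder and 1109 toward stomach held with any 1 library left out.

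**Figure D3:**
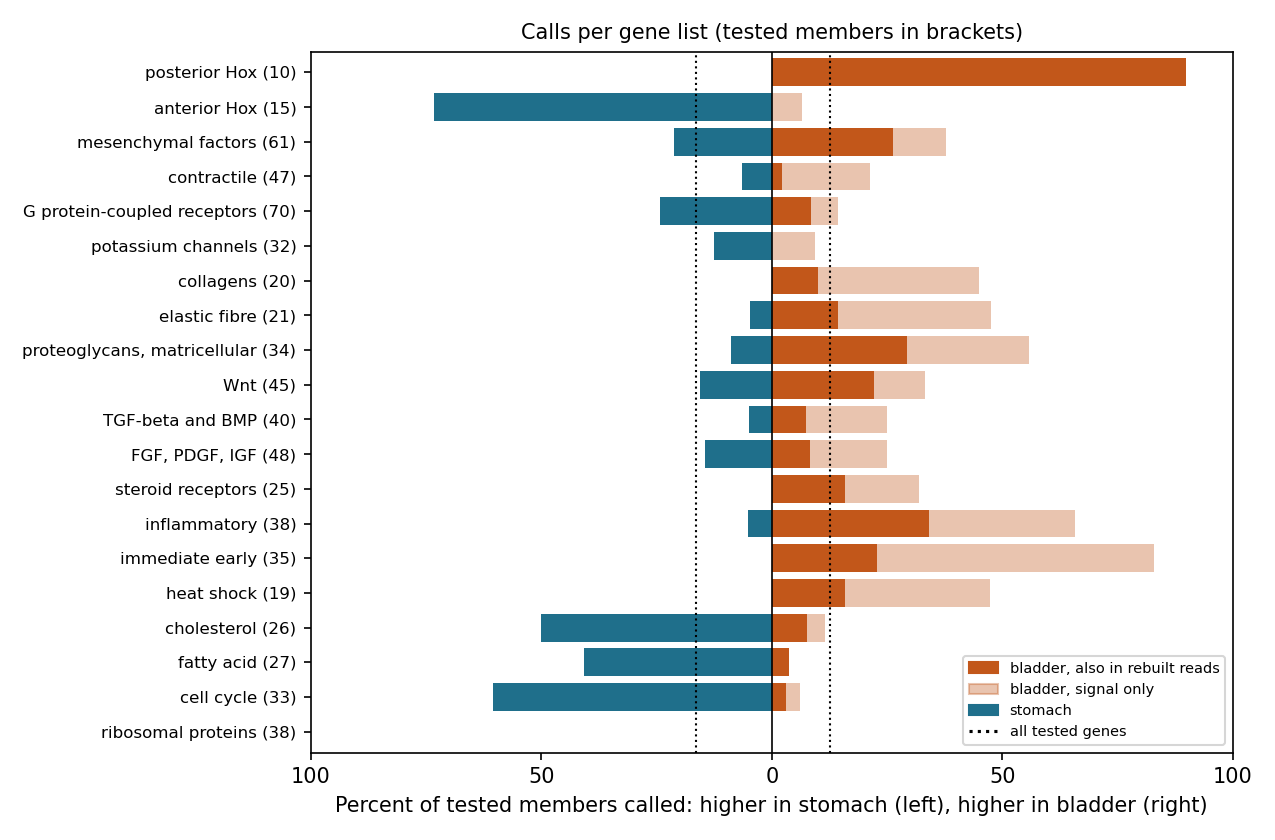
Percent of the tested members of 20 gene lists called higher in bladder (right) or in stomach (left). Dark orange bars are bladder calls also higher in rebuilt reads, pale orange bars the other bladder calls, and dotted lines the shares over all tested genes, 12.6% and 16.5%.

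Late Hox genes marked the bladder cells. Hoxa10 (chromosome 6, 52208177 to 52217834, mm39), a homeobox factor of the lower body axis, was at 1089, 1092 and 856 in bladder and at 0 in all 3 stomach libraries. Against a floor of 3 reads per stomach library it was at least 597-fold higher (adjusted p = 3.24e-05). Its neighbour Hoxa11 (52219086 to 52222790) was at 839, 626 and 381 and Hoxa13 (52234674 to 52237788), the last gene of the cluster, at 493, 628 and 323. Both were at 0 in stomach, so the values are at least 363-fold and at least 284-fold higher in bladder. Hoxd13, which ends the HoxD cluster on chromosome 2, was at 57, 75 and 85 in bladder and 0 in stomach, at least 42.7-fold higher. The fitted log2 fold change of a gene at 0 in one organ depends on the pseudocount of 1 and is not given for these genes.

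Of 10 tested late Hox genes 9 were called higher in bladder and none lower, beside 12.6% and 16.5% of all tested genes. The median log2 fold change was 6.03 over the 10 against -0.17 over all tested genes. None is near the read ceiling, and the 9 were also higher in every bladder library in rebuilt reads. The summed signal of the list was 2429 to 3140 in bladder and 20 to 28 in stomach. Hoxd9 was the member that did not pass, at 50, 22 and 68 against 23, 14 and 12 (adjusted p = 0.111), although it passed without bladder 2 (adjusted p = 0.0382). Long RNAs of the cluster followed the coding genes: Hottip, which lies beyond Hoxa13, was at 57, 100 and 34 and Hoxa11os, which runs antisense to Hoxa11, at 216, 311 and 211, both at 0 in stomach. Reads of Hoxa11 and Hoxa11os cannot be told apart where the genes overlap, since the labels do not say that strand was used in counting. The HoxC genes were low, with Hoxc9 at 12, 13 and 27 and Hoxc10 at 23, 40 and 60, and their spans overlap that of Hoxc5.

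Early Hox genes went the other way. Of 15 tested, 11 were higher in stomach and 1 in bladder, with a median log2 fold change of -3.52. The shares of all tested genes were 16.5% and 12.6%. Without stomach 1, 2 or 3 the stomach count was 5 each time, and the bladder call was lost without bladder 2 or any stomach library. Hoxb5, a homeobox gene of the HoxB cluster, was at 2, 0 and 0 in bladder and 83, 77 and 108 in stomach (log2 fold change -5.95, SE 0.59, adjusted p = 0.000584). Hoxb4 was at 3, 0 and 1 against 51, 37 and 53, and Hoxa3 at 6, 21 and 8 against 111, 96 and 123. In each of these 3 genes the groups were far apart. The span of Hoxa3 overlaps those of Hoxa5 and Hoxa4 on the same strand, whose highest signals were 113 and 68. Hoxc4 and Hoxc5 were above 0 in 1 bladder library each, at 14 in bladder 2, against 57 to 96 and 55 to 73 in stomach. Their calls were lost without any 1 stomach library, with adjusted p between 0.0543 and 0.0727. The member higher in bladder was Hoxd8, at 154, 249 and 149 against 64, 85 and 78. Its rebuilt reads overlapped between the organs, but they are not scaled for depth, and no early Hox gene is near the read ceiling. The overlap alone therefore does not count against the call.

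**Figure D4:**
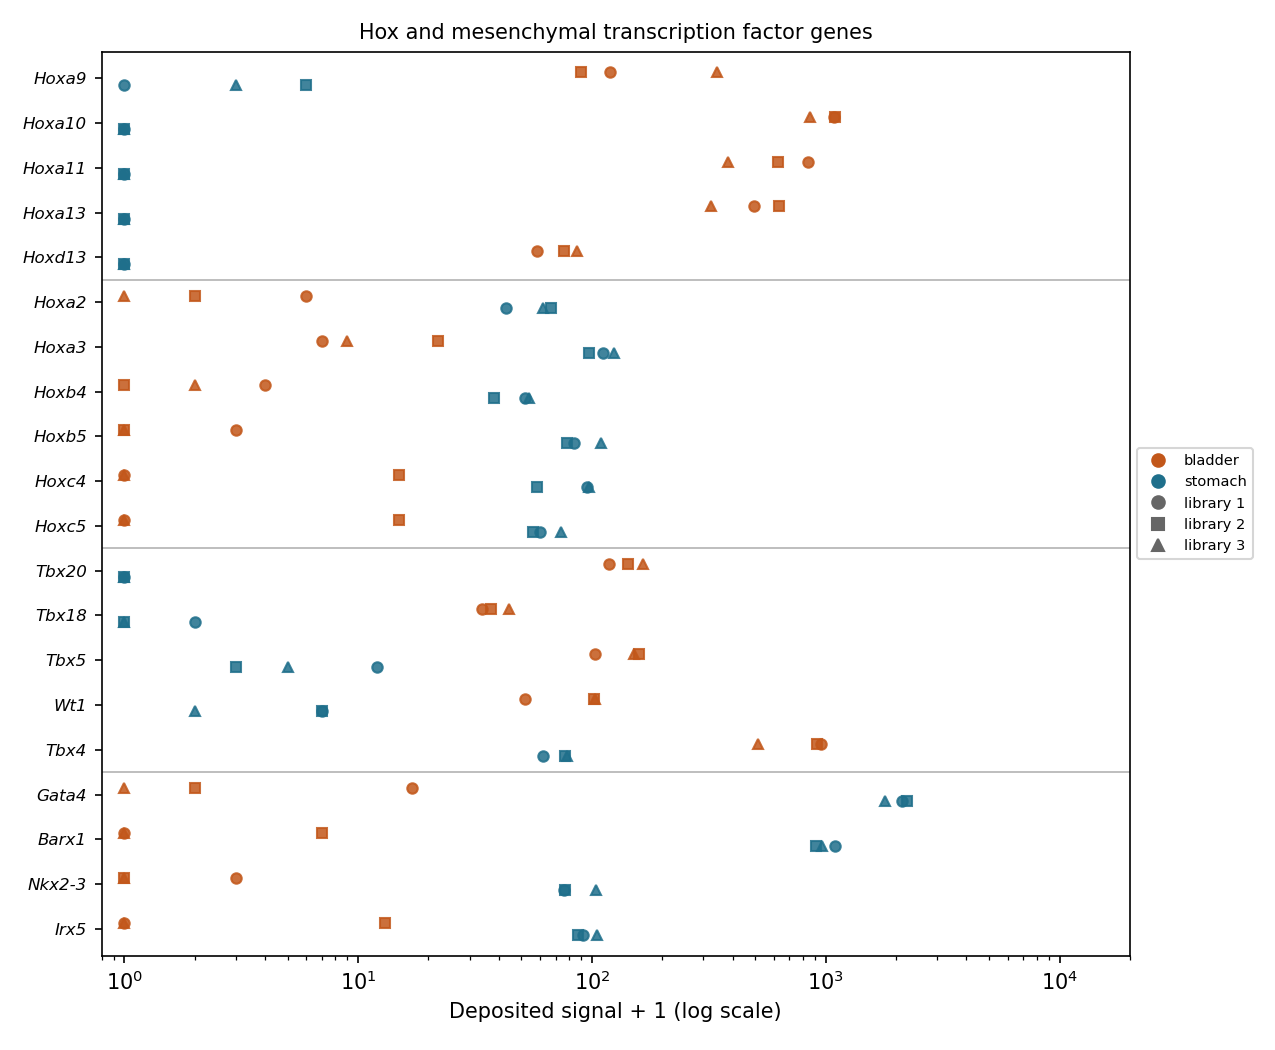
Deposited signal plus 1 on a log axis for Hox genes and other transcription factors, with 1 point per library, bladder in orange and stomach in blue and the symbol giving the library number. Hoxa10, Hoxa11 and Hoxa13 sit between 323 and 1092 in bladder and at 0 in stomach, while Gata4 and Barx1 are high in stomach and at most at 16 in bladder.

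Other factors of mesenchyme were called in both directions. Among 61 tested factors 23 were higher in bladder and 13 in stomach, and 16 of the 23 held in rebuilt reads. Of all tested genes 12.6% and 16.5% were called. Leaving out stomach 2 gave 15 bladder calls, and leaving out stomach 1, 2 or 3 gave 7 stomach calls each. Gata4 (chromosome 14, 63436371 to 63509141), a zinc finger factor of foregut endoderm and heart, was at 2114, 2229 and 1795 in stomach and 16, 1 and 0 in bladder (log2 fold change -9.30, SE 0.98, adjusted p = 0.00076). Barx1 (chromosome 13, 48816474 to 48819983), a homeobox factor that patterns stomach mesenchyme, was at 1093, 905 and 959 against 0, 6 and 0. Nkx2-3 (chromosome 19, 43600764 to 43604331), a homeobox factor of gut mesoderm, was at 75, 76 and 103 against 2, 0 and 0. Every stomach library lay far above every bladder library in these 3 genes. Irx5, an Iroquois homeobox factor, was at 91, 86 and 104 against 0, 12 and 0, and Sox9, an SRY-box factor of cartilage and many epithelia, at 1767, 1742 and 1493 against 387, 496 and 165. Gata4 and Sox9 are also known from epithelial cells, and their signal stood beside the gastric epithelium sums given above.

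On the bladder side, several T-box genes were higher. Tbx20 (chromosome 9, 24629434 to 24685599), known from heart development, was at 117, 142 and 164 in bladder and 0 in stomach, at least 83.2-fold higher. Tbx18, a factor of ureteral and cardiac mesenchyme, was at 33, 36 and 43 against 1, 0 and 0, and Tbx5 at 102, 158 and 150 against 11, 2 and 4. Tbx4, a factor of hindlimb and lung mesenchyme, was at 957, 913 and 511 against 61, 76 and 77 (log2 fold change 3.41, SE 0.31, adjusted p = 0.000415). Signal in all 4 genes was separated between the organs. Wt1, the Wilms tumour factor of urogenital mesoderm and mesothelium, was at 51, 101 and 102 against 6, 6 and 1. The bHLH factor Twist2 (158, 240 and 244 against 29, 18 and 43) and the homeobox factor Msx1 (690, 1106 and 535 against 106, 137 and 99) were higher as well. Foxf1, a forkhead factor of visceral mesoderm, was high in both organs, 2865, 3412 and 2967 in bladder and 1515, 1425 and 1238 in stomach. It is near the read ceiling and its rebuilt reads overlapped, 2212 to 3690 in bladder and 2277 to 2668 in stomach.

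Kidney and intestine gave a second pair of a urogenital and a gut organ, with 3 and 4 libraries and none shared. Hoxa10 was at 928 ± 162 in kidney (SD, n = 3) and 0, 6, 0 and 0 in the intestine libraries, and Hoxa11 at 142 ± 35.3 in kidney and 0 in intestine. The last genes of the clusters were not part of that pattern: Hoxd13 and Hottip were at 0 in all kidney and intestine libraries, and Hoxa13 was at 0, 9 and 0 in kidney and 0 in intestine. Hoxd9, which did not pass between bladder and stomach, was at 436 ± 59.0 in kidney and 9.0 ± 4.2 in intestine (adjusted p = 1.65e-05). Of 19 early Hox genes tested in this pair, 7 were higher in kidney and 7 in intestine. The shares of all genes tested there were 12.1% and 17.4%. As a list, the early genes thus did not repeat their direction toward the gut organ. Gata4 was at 0 in all kidney libraries and 486 ± 126 in intestine (SD, n = 4). Of 19 gastric epithelium markers tested in this pair, 16 were higher in intestine and 1 in kidney. The part of epithelial cells in the values of this pair was not tested. Barx1 reached 350, 22, 212 and 330 in intestine against at most 1 in kidney, and Nkx2-3 1806 ± 233 against 0, 7 and 28. Nkx2-3 was thus much higher in intestine than the 75 to 103 found in stomach, in separately sorted libraries of 1 table. Tbx4 ran against the bladder direction, lower in kidney (2, 5 and 24) than in intestine (161 ± 43.7). Foxf1 was at 87, 38 and 52 in kidney and 1719.5 ± 191 in intestine.

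Of 47 tested contractile genes 10 were called higher in bladder and 3 in stomach, with a median log2 fold change of 0.05. Over all tested genes 12.6% were called higher in bladder and 16.5% in stomach. Of the 10, 8 are near the read ceiling and 1, the sarcoglycan Sgce, was also higher in rebuilt reads in every bladder library, at signals of 1583, 1964 and 2613 against 775, 761 and 804, a 2.63-fold difference (adjusted p = 0.0036). Leaving out bladder 1, bladder 2, stomach 1, stomach 2 or stomach 3 gave 16, 5, 5, 1 or 1 bladder calls, and 13, 1, 0, 0 or 0 stomach calls. Myl9, the regulatory light chain of smooth muscle myosin, was at 1641, 2110 and 2529 against 1424, 1223 and 1018 in signal, a call (adjusted p = 0.0364) that held only when bladder 1 was the library left out. Its rebuilt reads were 2113, 2109 and 1885 in bladder and 2140, 2164 and 2194 in stomach, so the order of the organs turned between both scales.

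Receptors for vasoactive and visceral transmitters were called in both directions. Of 70 tested G protein-coupled receptors 10 were higher in bladder, 6 of them also in reads, and 17 in stomach. Leaving out stomach 1, 2 or 3 gave 4, 4 or 6 and 10, 10 or 10. The shares over all tested genes were 12.6% and 16.5%, the bladder share close to that of this list, and the list was not tested against them. Avpr1a (chromosome 10, 122284404 to 122289357), the vasopressin receptor that constricts arteries, was at 2430, 2824 and 1254 in bladder and 134, 115 and 246 in stomach (log2 fold change 3.71, SE 0.40, adjusted p = 0.000837). Npy1r (chromosome 8, 67149844 to 67159444), the neuropeptide Y receptor that potentiates sympathetic constriction, was at 1643, 1127 and 1405 against 83, 118 and 90 (log2 fold change 3.83, SE 0.24, adjusted p = 0.000111). Both are near the ceiling in some libraries but remained separated in rebuilt reads, 935 to 3129 against 201 to 530 and 1047 to 2116 against 125 to 209. In kidney and intestine Npy1r followed the same order, 1675 ± 181 against 282 ± 58.5, while Avpr1a was lower in kidney, 136 ± 35.6 against 364 ± 47.1.

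Several receptors of gut hormones and acetylcholine were higher in stomach, most of them at or near 0 in bladder. Cckar (chromosome 5, 53855118 to 53865047), the cholecystokinin receptor of gut muscle and secretory cells, was at 952, 977 and 874 in stomach and 0 in bladder, at least 299.6-fold higher. Cckbr, the gastrin receptor, was at 104, 178 and 131 against 0. Chrm2 and Chrm3, the muscarinic receptors through which acetylcholine contracts visceral muscle, were at 57, 75 and 74 against 7, 1 and 9, and at 31, 58 and 38 against 0, 0 and 3. Signal was low but above every bladder library in both. Chrm1 was at 112, 91 and 93 against 5, 0 and 0. Tacr2, the neurokinin A receptor, was at 49, 75 and 80 against 1, 0 and 0, and Vipr2, a receptor of the relaxing peptide VIP, at 272, 320 and 290 against 112, 52 and 59. The organs did not overlap for these peptide receptors either. Hrh2, the histamine receptor that drives acid secretion, was at 224, 281 and 182 against 9, 0 and 0. Cckbr and Hrh2 are known from acid-secreting epithelium, whose proton pump gene Atp4a was at 4803, 4147 and 3422 in stomach and 3, 0 and 0 in bladder. Chrm2 was also higher in intestine, at 226, 86, 148 and 58, than in kidney, at 0, 1 and 1.

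Of 32 tested potassium channel genes 3 were higher in bladder, none of them also in reads, and 4 in stomach, beside 12.6% and 16.5% of all tested genes. There were 12 stomach calls without bladder 1 and 2 without any 1 stomach library. The bladder count was 1 without stomach 2. Kcnk2, the stretch-gated channel TREK-1, was at 453, 683 and 193 in bladder against 17, 27 and 78 in stomach, and its rebuilt reads overlapped (144 to 683 against 26 to 168). Those reads are not scaled for depth, so the overlap alone does not count against the call. The Kcnk2 call was lost without stomach 2 (adjusted p = 0.0513). Kcne4, an accessory subunit of potassium channels, was at 2030, 1676 and 930 against 462, 486 and 487. Kcnq1, the pore subunit Kv7.1, which also recycles potassium in acid-secreting cells, was at 1693, 1736 and 1487 in stomach against 4, 18 and 0. Its span overlaps that of the antisense gene Kcnq1ot1, whose highest signal was 307. Kcnn4, the intermediate-conductance calcium-activated channel, was at 553, 635 and 434 against 38, 59 and 58. Among calcium and cyclic nucleotide genes, Pde1c, a phosphodiesterase of proliferating smooth muscle, was at 119, 129 and 130 in stomach and 0, 0 and 4 in bladder. It was joined by Sln, the calcium pump regulator sarcolipin, at 92, 60 and 70 against 2, 8 and 0, and by Cacna2d3, a calcium channel subunit, at 29, 39 and 26 against 0, 2 and 0. Pde1c showed the same order in the other pair of organs, 396 ± 123 in intestine and 2.3 ± 3.2 in kidney. Rnd3, an atypical small GTP-binding protein, was higher in bladder, 2088, 1994 and 2444 against 418, 485 and 426 (log2 fold change 2.29, SE 0.16, adjusted p = 0.000162).

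Of the matrix genes that were called, most collagen, elastic fibre and proteoglycan genes were higher in bladder, with many near the read ceiling. Fibroblast marker sums, 57202 to 81361 in bladder and 25298 to 30404 in stomach, were also higher in bladder. That marker list shares members with these lists, among them Col1a1 and Col14a1. By bladder library its sums were 59533, 57202 and 81361, against 96175, 68441 and 86945 for collagens. The part of fibroblasts in the matrix lists was not tested. Of 20 fibrillar and associated collagens 9 were called higher in bladder and 0 in stomach (in 0 to 3 on leaving out 1 library), 7 of the 9 near the ceiling and 2 also in reads. Without bladder 2, stomach 1, stomach 2 or stomach 3 the count was 5, 3, 2 or 3. Background shares over all tested genes were 12.6% toward bladder and 16.5% toward stomach. Col1a1, the main chain of type I collagen, was at 8427, 10549 and 13785 against 6575, 5607 and 4780 in signal, but at 10853, 10544 and 10277 against 9881, 9920 and 10302 in rebuilt reads, where the organs overlapped. Its call held without bladder 1 or bladder 3 but not without bladder 2 or any stomach library (adjusted p 0.0528 to 0.101). Col11a1 (chromosome 3, 113824189 to 114014367), a minor fibrillar chain, was far from the ceiling, at 1777, 578 and 471 against 9, 7 and 19 (log2 fold change 6.07, SE 0.61, adjusted p = 0.00063). Col12a1 and Col14a1, which decorate type I fibrils, were at 5238, 2870 and 2585 against 1062, 1092 and 1346, and at 8455, 2334 and 6414 against 1067, 862 and 1204. Their lowest bladder libraries overlapped the stomach libraries in rebuilt reads, which are not scaled for depth. The Col14a1 call was lost without stomach 2 (adjusted p = 0.06).

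Among 34 proteoglycan and matricellular genes 19 were higher in bladder, 17 of them near the ceiling and 10 also in reads, and 3 were higher in stomach. Without stomach 1, 2 or 3 the bladder count was 10, 9 or 9, and without each of these the stomach count was 2. Calls over all tested genes were 12.6% toward bladder and 16.5% toward stomach. Thbs2, a thrombospondin that restrains angiogenesis, was at 8641, 9299 and 9983 against 1552, 1476 and 1498 (log2 fold change 2.62, SE 0.14, adjusted p = 5.67e-05), and its rebuilt reads of 7442 to 11128 lay above the 2332 to 3228 of stomach. Omd and Fmod, small leucine-rich proteoglycans, were at 162, 186 and 256 against 14, 24 and 16, and at 1968, 1013 and 1457 against 218, 336 and 382. Spp1, which encodes osteopontin, was at 1640, 1402 and 1140 in stomach and 2, 76 and 7 in bladder, and Smoc1, a calcium-binding matrix protein, at 648, 703 and 589 against 190, 180 and 162. Of 21 elastic fibre genes 10 were higher in bladder, 9 of them near the ceiling, 3 also in reads, and 1 in stomach, which had 3 calls without bladder 1 and 0 without any other library. Without stomach 2 the bladder count was 6. Fbln5, which guides elastic fibre assembly, was at 3676, 4745 and 5770 against 1614, 1374 and 1401, and Emilin2 at 1183, 653 and 766 against 168, 127 and 213.

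Integrins were called in both directions, 3 of 18 higher in bladder and 5 in stomach, beside 12.6% and 16.5% of all tested genes. The list is short and was not tested against those shares. The bladder count was 1 without stomach 2, and the stomach count was 10 without bladder 1 and 3 without any 1 stomach library. Itga11 (chromosome 9, 62585108 to 62691264), the collagen-binding alpha-11 chain of fibroblasts, was at 4428, 2346 and 1957 in bladder and 202, 209 and 263 in stomach (log2 fold change 3.61, SE 0.32, adjusted p = 0.000382). Itgb6 and Itga6, chains of epithelial and laminin-binding integrins, were at 619, 711 and 452 against 14, 0 and 0, and at 1477, 1605 and 1205 against 69, 17 and 4, higher in stomach. The integrin ligand nephronectin (Npnt) was at 1074, 1202 and 1322 in stomach against 412, 154 and 153. Itga11 did not follow the same order in the other pair, at 80.0 ± 35.6 in kidney and 2069 ± 336 in intestine.

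Wnt pathway genes included large differences in both directions. Wnt2 (chromosome 6, 17988939 to 18030584), a secreted ligand, was at 1742, 2050 and 2515 in bladder and 20, 14 and 15 in stomach, 129-fold higher (log2 fold change 6.92, SE 0.27, adjusted p = 3.24e-05). It is near the ceiling, and its rebuilt reads were 1875 to 2243 against 25 to 32. In kidney and intestine Wnt2 was at 13.7 ± 7.4 and 5.8 ± 3.3 and was too low to test. The noncanonical ligands Wnt5b (1170, 932 and 846 against 200, 151 and 157) and Wnt4 (860, 2001 and 956 against 288, 272 and 287) were higher in bladder, and Wnt5a was higher in stomach, 707, 771 and 566 against 223, 110 and 262, a call lost without stomach 2 (adjusted p = 0.0532). The span of Wnt5b overlaps that of Fbxl14 on the other strand, whose highest signal was 469.

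Of the secreted inhibitors named here, each was higher in bladder. Notum, an enzyme that inactivates Wnt ligands, was at 996, 1518 and 673 against 57, 50 and 65 (log2 fold change 4.12, SE 0.33, adjusted p = 0.000273). Dkk2, which binds the LRP co-receptors, was at 1851, 3127 and 1312 against 115, 132 and 139, and in kidney at 1347 ± 142 against 94.2 ± 34.7 in intestine. The secreted frizzled-related genes Sfrp4 and Frzb were at 1041, 2587 and 2737 against 134, 103 and 199, and at 502, 636 and 800 against 114, 40 and 107. Enhancers and receptors named here were higher in stomach. Rspo3, an R-spondin that potentiates Wnt, was at 132, 153 and 226 against 23, 28 and 15, and Rspo4 was at 47, 25 and 53 against 0. The R-spondin receptor Lgr4 was at 841, 981 and 747 against 95, 78 and 31, and the Wnt receptor Fzd6 at 158, 245 and 208 against 17, 13 and 21. Over 45 tested Wnt genes 15 were higher in bladder, 10 of them also in reads, and 7 in stomach. The background shares over all tested genes were 12.6% and 16.5%. Without stomach 2 the stomach count was 4.

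BMP signalling showed single large differences. Of 40 tested TGF-beta and BMP genes 10 were higher in bladder, 3 of them also in reads, and 2 in stomach. These counts stand beside 12.6% and 16.5% of all tested genes. Without bladder 3 the bladder count was 16, without stomach 1 or 3 it was 6 and without stomach 2 it was 4, and the stomach count was 6 without bladder 1 and 1 without stomach 1 or 2. Bmp3, an antagonistic ligand, was at 1453, 1234 and 821 in bladder and 43, 37 and 45 in stomach (log2 fold change 4.74, SE 0.28, adjusted p = 9.59e-05). Gdf10, a related ligand, was at 1265, 972 and 1335 against 58, 90 and 102, and Bambi, a decoy receptor, at 979, 1570 and 779 against 165, 180 and 158. Grem1, a secreted BMP inhibitor of gut mesenchyme, was at 187, 90 and 214 in stomach and 0, 8 and 0 in bladder. Between kidney and intestine Grem1 kept that order, at 2, 0 and 5 against 349 ± 68.0, and Gdf10 was at 2120.0 ± 257 against 386 ± 115, but Bmp3 was lower in kidney, 145 ± 86.9 against 895 ± 152. Ihh, a hedgehog ligand secreted by epithelium, was at 604, 650 and 578 in stomach against 9, 1 and 0.

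Among growth factors, Pdgfd, a PDGF receptor ligand, was at 2244, 2778 and 2132 in bladder against 539, 571 and 451, and Nrg1, an ErbB ligand, at 470, 471 and 492 in stomach against 56, 137 and 87. Of 25 tested steroid and nuclear receptor genes 8 were higher in bladder, 4 of them also in reads, and 0 in stomach, where leaving out bladder 1 gave 4. Across all tested genes the shares were 12.6% and 16.5%. Hsd11b1, which regenerates active glucocorticoid, was at 1430, 2186 and 2840 against 296, 253 and 327, with a span that overlaps the opposite-strand gene Lamb3 (highest signal 512). Nr4a3, an orphan receptor that is also an immediate early gene, was at 292, 442 and 138 against 18, 16 and 19.

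**Figure D5:**
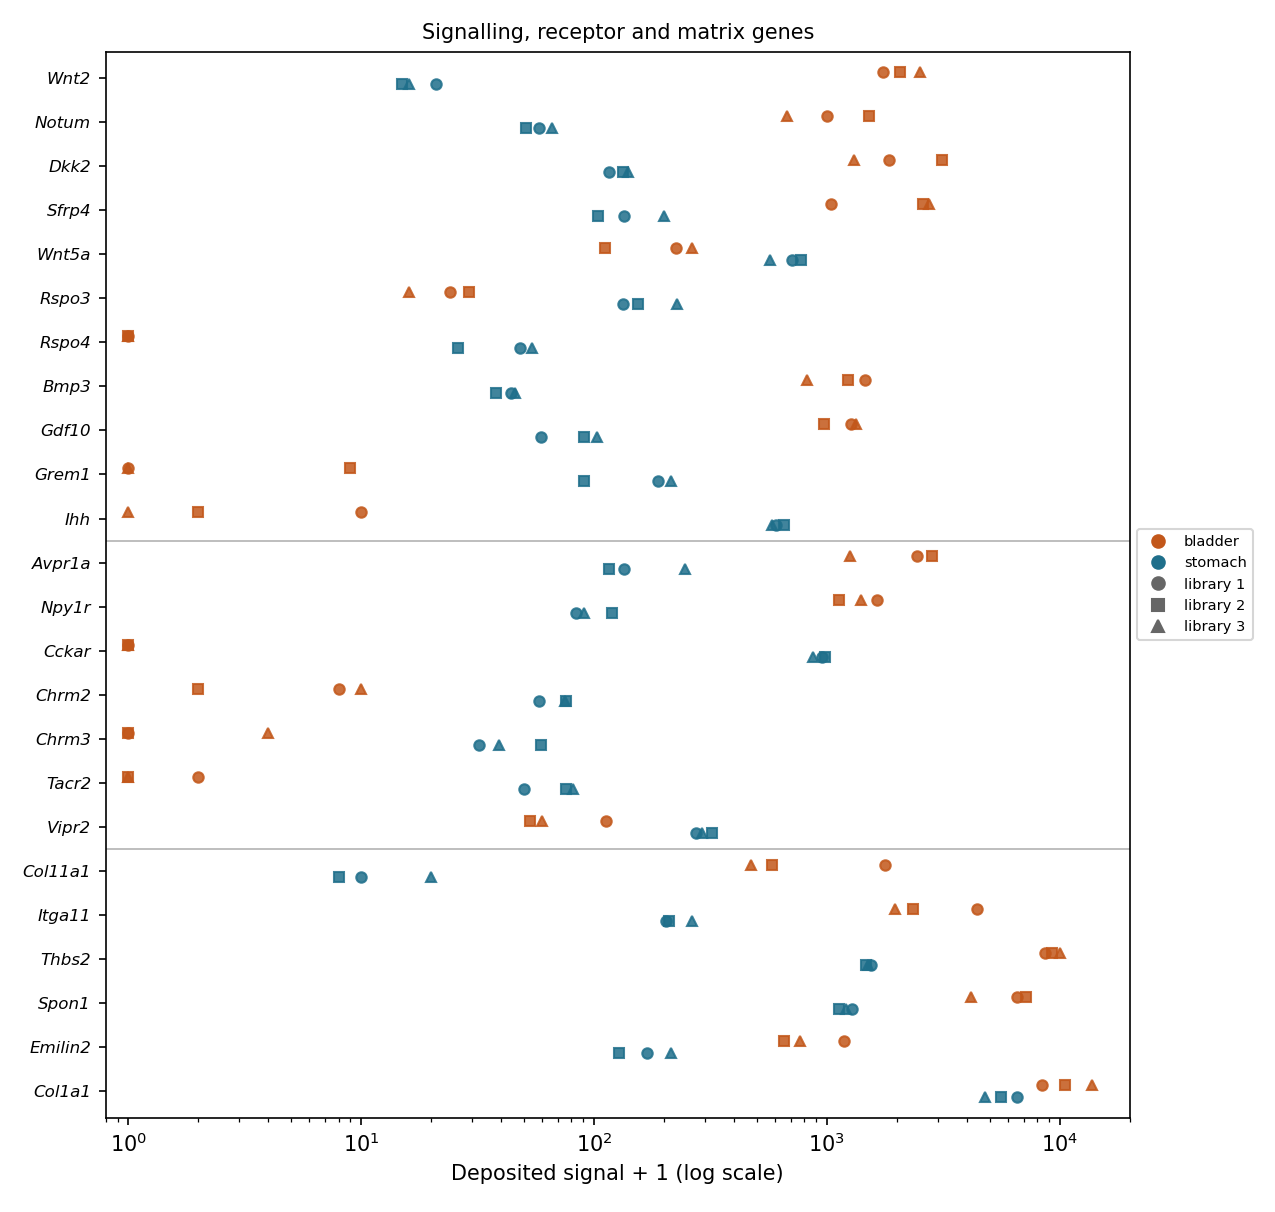
Deposited signal plus 1 on a log axis for signalling genes (top), receptors (middle) and matrix genes (bottom), with 1 point per library, bladder in orange and stomach in blue. Wnt2, Bmp3 and Col11a1 are high in bladder and low in stomach, Cckar and Ihh the reverse, and the bladder and stomach values of Col1a1, which is at the read ceiling, lie close together.

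Genes of acute activation were higher in bladder. Of 35 tested immediate early genes, which are induced within minutes of a stimulus, 29 were called higher in bladder and 0 in stomach. As many as 23 of the 29 are near the read ceiling and 8 were also higher in reads. Leaving out bladder 2, stomach 1, stomach 2 or stomach 3 gave 17, 16, 15 or 15 calls. Shares over all tested genes were 12.6% higher in bladder and 16.5% higher in stomach. Egr2 (chromosome 10, 67371305 to 67378018), a zinc finger factor, was at 2941, 3803 and 1945 in bladder against 174, 189 and 245 in stomach (log2 fold change 3.79, SE 0.28, adjusted p = 0.000189). Maff, a small bZIP factor, was at 840, 1373 and 571 against 65, 67 and 101, and Fosl1, a Fos relative, at 151, 185 and 74 against 2, 7 and 2. These 3 genes stayed apart in rebuilt reads, while Fos and Egr1, among the most abundant, did not show a difference there beyond their spread: Egr1 had 6102, 5997 and 5887 reads in bladder and 5607, 5740 and 5916 in stomach, overlapping. The signal calls of Fos and Egr1 held without bladder 1, that of Egr1 also without bladder 3, and neither held without bladder 2 or any stomach library. Egr2 was also higher in kidney than in intestine, 808 ± 217 against 79.2 ± 34.8. Fosl1 overlaps Ccdc85b on the other strand, whose highest signal was 490.

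Many immediate early and smooth muscle genes are known targets of serum response factor, which binds the CArG box. Windows of Egr2 (chr10:67537316-67537615, plus strand, GRCm38.p6) and Myl9 (chr2:156775214-156775513, plus strand) are shown because both hold one, marked in capitals. The Egr2 window is 1 of 5 listed for that gene, and the others are not shown.
Egr2: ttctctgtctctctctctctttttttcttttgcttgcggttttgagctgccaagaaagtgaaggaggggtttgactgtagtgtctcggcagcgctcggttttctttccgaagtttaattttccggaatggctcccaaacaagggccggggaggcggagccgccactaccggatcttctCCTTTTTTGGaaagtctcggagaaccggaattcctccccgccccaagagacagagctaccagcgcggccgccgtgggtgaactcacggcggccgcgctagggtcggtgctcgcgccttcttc
Myl9: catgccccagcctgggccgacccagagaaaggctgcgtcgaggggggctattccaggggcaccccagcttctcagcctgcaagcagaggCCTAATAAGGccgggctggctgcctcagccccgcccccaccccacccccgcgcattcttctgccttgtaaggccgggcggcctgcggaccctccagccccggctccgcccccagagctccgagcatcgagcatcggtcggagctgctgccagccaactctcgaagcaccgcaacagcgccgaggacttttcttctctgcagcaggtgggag
The box starts 72 bases before the start of transcription in the Egr2 window shown and 161 before it in Myl9. A CArG box, which reads as the same pattern on both strands, was found in 3 of 29 immediate early genes with a window, in 8 of 43 contractile genes and in 488 of 27025 genes of the table, 1.81%. Egr2 was higher in bladder in signal and in reads, and Myl9 was called higher in signal but had nearly equal reads in all libraries. Nearly equal reads are also what the read ceiling gives, so the pair does not show a difference in regulation. The match describes the letters of these windows only.

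Inflammatory genes were also higher in bladder, with 25 of 38 called there and 2 in stomach, 18 of the 25 near the ceiling and 13 also in reads. Without any 1 stomach library the stomach count was 0, and without bladder 2 it was 1. Il6, which encodes interleukin-6, was at 1022, 1469 and 420 against 55, 56 and 79, and the chemokine genes Cxcl14 and Cxcl2 at 2385, 3217 and 4002 against 317, 222 and 309, and at 186, 203 and 205 against 22, 20 and 11. Vcam1, an adhesion molecule for leukocytes, was at 2677, 3147 and 2310 against 434, 398 and 450 (log2 fold change 2.65, SE 0.17, adjusted p = 0.000123). Ptges, the inducible prostaglandin E synthase, was at 2417, 2023 and 1680 against 290, 393 and 316. Leukocyte marker sums, 4885 to 10360 in bladder and 412 to 500 in stomach, were also higher in bladder. By bladder library they were 6719, 4885 and 10360, against 46492, 47892 and 47410 for the inflammatory list. The part of leukocytes in that list was not tested. Heat shock genes numbered 9 higher in bladder of 19, 3 also in reads, and 6 without bladder 2 or any 1 stomach library, and Dnajb1, a co-chaperone of HSP70, was at 3246, 4216 and 3422 against 932, 932 and 969. Interferon genes were called in both directions, with 8 of 42 higher in bladder (2 without any 1 stomach library). In stomach 3 were higher (2 without any 1 stomach library and 5 without bladder 1). Among all tested genes 12.6% and 16.5% were called, and no test against these shares was made. The GTPase Iigp1 was at 2427, 3967 and 683 in bladder against 113, 153 and 151, and the antiviral genes Oas2 and Mx1 were at 140, 164 and 114 in stomach against 15, 0 and 0, and at 11, 27 and 46 against 0.

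Proliferation and lipid genes were higher in stomach. Of 33 cell cycle genes 20 were higher in stomach and 2 in bladder, with 12, 10 and 14 stomach calls and 1 bladder call each without stomach 1, 2 and 3. For this and the lists below, the shares of all tested genes were 16.5% toward stomach and 12.6% toward bladder. Mki67, the proliferation antigen Ki-67, was at 617, 578 and 496 against 35, 20 and 1 in bladder, and the mitotic kinase Cdk1 at 408, 441 and 435 against 33, 10 and 0, a call lost without stomach 2 (adjusted p = 0.0558). Cdkn1a, which encodes the cell cycle inhibitor p21, was at 2020, 2845 and 2030 in bladder against 600, 642 and 546. Of 26 cholesterol genes 13 were higher in stomach and 3 in bladder, but without bladder 2 or stomach 1, 2 or 3 the stomach count was 8, 3, 2 or 3. Abcg1, a cholesterol exporter, was at 379, 371 and 398 in bladder against 65, 60 and 89. Fatty acid genes numbered 11 of 27 in stomach and 1 in bladder, with 6, 5 and 7 without stomach 1, 2 and 3. Acsl1, which activates long-chain fatty acids, was at 1237, 1189 and 873 against 269, 276 and 154, and the mitochondrial coactivator Ppargc1a at 236, 270 and 218 against 25, 4 and 28. Plin2, a lipid droplet coat protein, was at 1369, 1961 and 1842 in bladder against 411, 404 and 441. Gastric epithelium divides and is rich in mitochondria, and its marker sums of 30457 to 39183 stood beside these lists, whose dependence on them was not tested. None of 38 ribosomal protein genes was called by limma in either direction, although without bladder 1 there were 17 calls toward bladder.

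The largest differences over all genes with a mean of at least 100 in the higher organ included several of the genes above. On the bladder side they added Prss35, a protease-like secreted protein (2195, 3680 and 1194 against 4, 11 and 2), the neural adhesion gene Cntn4 (1597, 512 and 630 against 3, 0 and 2) and Mc5r, a melanocortin receptor (860, 1070 and 549 against 0, 3 and 3). The organs were widely separated in all 3. F13a1 and Retnla, known from macrophages, were at 557, 135 and 400 and at 226, 182 and 386, with 0 in stomach, and Tac1, which encodes substance P, was at 58, 702 and 114 against 0. Mc5r was higher in intestine than in kidney, 120.5 ± 14.0 against 1.0 ± 1.0, the other way round from bladder and stomach. On the stomach side the list was led by Muc5ac, the mucin Muc6 (2145, 2141 and 2607 against 0) and Atp4a, followed by the tight junction gene Cldn18 (2691, 2585 and 1992 against 1, 0 and 0) and Esrrg, an orphan nuclear receptor (2452, 2886 and 1927 against 0, 0 and 1). Muc5ac, Muc6 and Atp4a are themselves members of the gastric epithelium list.

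Among genes with a mean of at least 100 in both organs, Gfpt2, an enzyme of hexosamine synthesis, was at 3896, 3094 and 4273 in bladder against 250, 306 and 392 (log2 fold change 3.58, SE 0.22, adjusted p = 0.000111). Pamr1, a secreted protease-like protein, was at 2860, 3798 and 4085 against 286, 229 and 391, and the peptidase Naalad2 at 1394, 1488 and 1084 against 109, 116 and 128. Toward stomach, the adhesion receptor Adgrg1 was at 1463, 1624 and 1432 against 92, 83 and 168 (log2 fold change -3.78, SE 0.29, adjusted p = 0.000229). Acss1, a mitochondrial acetate-activating enzyme, was at 1287, 1411 and 1119 against 152, 66 and 97. The potassium chloride cotransporter Slc12a7 was at 1229, 1445 and 1035 against 228, 32 and 54, and the sodium pump subunit Atp1b1 at 1906, 1730 and 1457 against 84, 212 and 149. Bladder and stomach libraries were apart in each of these 7 genes, and each held its call with any 1 library left out.

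How far the bladder and stomach difference recurred between kidney and intestine was counted over all genes. In that comparison 4432 of 15039 tested genes (29.5%) were called, 1814 higher in kidney (12.1%) and 2618 higher in intestine (17.4%). Of the 1671 bladder-higher genes tested there, 323 were higher in kidney, 19.3% of those and 21.9% of the 1476 kidney-higher genes tested in both, and 288 (17.2%) were higher in intestine. Of the 2143 stomach-higher genes, 827 were higher in intestine, 38.6% of those and 36.2% of the 2285 intestine-higher genes tested in both, and 201 (9.38%) were higher in kidney. Against the shares over all genes, the 38.6% in intestine compares with 17.4%, and for the bladder-higher genes the 19.3% in kidney compares with 12.1% and the 17.2% in intestine with 17.4%. No test of these shares was made. Gastric epithelium markers were called mostly toward the gut organ in both pairs, in intestine 16 of 19 tested, with 1 toward kidney. The part of epithelial cells in the shared calls was not tested.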

How the data were processed

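RNA from 22 sorted libraries was deposited as 1 table of signal: whole numbers scaled per library by the authors, as judged from the values, on mm39 per the submitters' processing notes. Those notes name, with no order or role, Trimmomatic 0.39, STAR 2.7.10a, Picard 3.0.0, featureCounts 2.0.4 and DESeq2 1.36.0. The scaling method is not given in the sources used here.

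The worth of 1 read in a library was estimated from the steps between values, and signal divided by it gave approximate rebuilt reads, least surely in bladder 2, whose step is close to 1. Exact counts could not be had where 1 read is worth less than 1 unit, so no count test was run, although the design foresaw one where reads could be rebuilt. For 96.2% of genes GENCODE M21 gave an exonic length. Reads carry no molecular identifiers, so floors cover counting error only.

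Limma-trend (limma 3.58.1, R 4.3.3) was run on log2(signal + 1) of the 6 libraries, with Benjamini-Hochberg adjusted p under 0.05. Fold changes on that scale understate changes of low genes. Kidney and intestine were fitted apart in the same way. Scripts were tested on simulated data.

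Genes, lists and comparison were chosen with earlier results of these data known. The rule for named genes took the 12 with the largest log2 fold change each way at a mean of 100 in the higher organ, 12 each way at that mean in both organs, up to 4 called members each way and the 2 most abundant of each described list, and Acta2 and Cspg4. Some are not reported here or are left out for length, and others were added as further examples after their values were seen. Members of 49 lists were counted with no test of a list. Of 133 named genes 34 overlap another listed gene, and only some of these overlaps are named above. Alternatives were other scalings, filters and pseudocounts, array weights, a replicate block, joint fits and each library left out.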

Additional observations from a re-analysis of the deposited data

Results flagged for a closer look

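Among the genes whose 4 intestine values are given above, 2 had 1 library far from the other 3, a rule that chance meets in about 1 in 20 groups. Hoxa10 was at 6 in intestine 2 and at 0 in the other intestine libraries. Gdf10 was at 556 in intestine 1 against 315 to 355 in the other 3.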

How the results depend on the processing

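Counts of called genes kept within 1.5 times of 4242 under other scalings, pseudocounts, filters, array weights, voom on rebuilt reads and a joint fit without aorta and heart 3, but not in a joint fit of all 22 libraries (2619 called, 1065 higher in bladder and 1554 in stomach). Among genes below the read ceiling 1165 were higher in bladder, and 686 bladder calls held in rebuilt reads. Leaving out 1 library gave 1927 to 6682 calls, 797 to 2623 toward bladder and 1130 to 4059 toward stomach, lowest without stomach 2 and highest without bladder 1. Voom put 29.9% of calls on the bladder side, against 43.3%. Scaling on genes under 0.2 reads per base moved the median log2 fold change of all genes from -0.17 to -0.03. Voom, this scaling and the restriction to calls that held in reads were chosen after seeing the data. Same-numbered libraries did not deviate together (correlations -0.058, -0.052 and -0.038), and a replicate block gave 3230 calls. Of 129 named genes with a call, 104 kept direction and call in every alternative tried, and 0 reversed. Myh11, which was not called, had a log2 fold change of -1.30 to 0.032 on leaving out 1 bladder library. Count tests on rebuilt reads were not run. Shallower bladder libraries limit the detection of genes low in bladder. The causes of these changes were not tested.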

Other observations

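Gene groups not described above divided as follows among their tested members. Higher in bladder and in stomach were 4 and 2 of 23 smooth muscle regulators, 3 and 5 of 18 visceral muscle genes, 2 and 0 of 18 pericyte genes, 2 and 4 of 43 calcium handling genes and 4 and 1 of 22 mechanosensing genes. The counts were 1 and 2 of 25 for basement membrane, 3 and 1 of 15 for hedgehog, 2 and 5 of 21 for Notch, 5 and 1 of 19 for retinoic acid, 12 and 7 of 48 for FGF, PDGF and IGF, 5 and 7 of 38 for axon guidance, 6 and 6 of 37 for hypoxia and glycolysis, 0 and 5 of 42 for oxidative phosphorylation and 7 and 6 of 29 for cell junctions. Against 12.6% and 16.5% over all tested genes, these shares lie on either side of the background, and many counts changed on leaving out 1 library. With bladder 1 left out the stomach counts of calcium handling and axon guidance genes were 19 and 18.

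Among marker lists of other cells, 4 and 5 of 15 were higher in bladder and in stomach for urothelium, 1 and 6 of 14 for glia and neurons, 1 and 3 of 7 for interstitial cells of Cajal, 3 and 1 of 7 for mesothelium, 0 and 11 of 13 for striated muscle and 0 and 2 of 2 for adipocytes. These counts stand beside 12.6% and 16.5% of all tested genes, and the lists are short. The urothelium list shares epithelial members with the gastric epithelium list. Kit, the receptor tyrosine kinase of interstitial cells of Cajal and mast cells, was at 346, 413 and 319 in stomach against 53, 15 and 42 in bladder (log2 fold change -3.42, SE 0.49, limma adjusted p = 0.00296). Cldn4, a tight junction gene of epithelium that was chosen after its values were seen, was at 85, 98 and 1044 in bladder and 1, 1 and 6 in stomach, highest in bladder 3 like Upk1b. No gene of the list that marks the sexes was called by limma in either direction, of 4 tested, against 1 toward bladder and 1 toward stomach without bladder 1.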
